A study of Mus musculus with 6 samples.

Results

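The venous and capillary identity genes were a set of 8 genes, Nr2f2, Ackr1, Nt5e, Tll1, Il1r1, Lrg1, Emcn and Plvap, chosen by symbol from the 20018 gene symbols on the array. All 8 were found, through 10 of the 55681 probes, by the transcript accession printed for each probe. Their expression was compared in endothelial cells of mouse skin between 3 wild-type samples and 3 samples from mice without APJ (gene Aplnr), the receptor for apelin. All 6 samples were labelled as C57Bl/6J, each numbered as 1 mouse, and their cells were taken by fluorescence-activated sorting with no treatment afterwards. The surface markers of the sort, how APJ was removed, whether it was removed in all tissues, and the age of the mice are not given in the labels. An embryonic stage stands only in the names of the scanner files. Whether animals were pooled is not stated, so every p-value below measures the spread between these 6 samples, which may be technical.

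Blood vessels carry different endothelium in arteries, capillaries and veins. Venous fate depends on Nr2f2 (COUP-TFII), a nuclear receptor that holds down Notch signalling and with it the arterial programme. Small veins are the usual site of leukocyte entry and carry receptors for chemokines and inflammatory cytokines, whereas Plvap builds the diaphragms of fenestrae and caveolae in capillaries and veins. Apelin and APJ are themselves known from veins and growing capillaries, and the comparison asked which genes of skin endothelium differ without the receptor.

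None of the 8 genes passed the test between genotypes. A gene was called at a limma p-value under 0.05 after Benjamini-Hochberg adjustment over the 24256 genes and unnamed probes tested. Of these, 0.557% were called, 90 higher and 45 lower in the knockout, or 4 and 1 when replicate numbers were blocked. Of the 8 genes, 1 (Ackr1) had an unadjusted limma p under 0.05, where 8.01% of everything tested did. The wild-type and knockout arrays did not overlap for 2 genes, Ackr1 and Plvap, against 12.2% of everything tested. The median difference of the 8 genes was -0.10 on the log2 scale, with 2 above 0 and 6 below, and over everything tested it was -0.019. With 1 array left out the members' median ran from -0.20 (without wild type replicate 3) to -0.020 (without APJ knockout replicate 3). Levels are log2 signals minus the 75th percentile of the same array, differences are knockout minus wild type, and neither says how one probe's gene compares with another's. In RNA from sorted cells, fewer cells of a vessel type and less of the RNA per cell cannot be told apart.

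The 75th percentiles of the 6 arrays ran from 250.4 to 398.4 in intensity, and between 50.3% and 58.0% of probes were well above background. Both probes of Plvap and Tll1 and the single probes of the other genes except Nt5e were well above background on all 6 arrays, and no member spot was marked as an outlier. Aplnr, the check of the labels, read 3.35, 3.78 and 3.83 in wild type and 1.90, 1.72 and 2.26 in the knockout. Its difference was -1.69 ± 0.19 (SE, n = 3 per group), at a limma adjusted p of 0.0238. That p was 0.0783 when replicate numbers were blocked, 0.0364 to 0.145 with 1 array left out, and 0.188 with no filter on dim probes. Whether this probe lies in the deleted stretch is not known here. The 14 pan-endothelial markers, Pecam1 and Cdh5 among them, were all tested, and their summed level was 10.17 to 10.30 in wild type and 10.22 to 10.34 in the knockout. Arrays came from 2 slides that were also 2 scans, with replicates 1 and 2 of both genotypes on slide 1 and replicate 3 of both on slide 2.

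Promoter sequences of 7 of the 8 genes were held in the RefSeq table used here, and 3 are shown. These are that of Ackr1, the member with the largest difference between genotypes, and those of Nr2f2 and Emcn. Nr2f2 and Emcn had the highest correlation among the members (Pearson's r = 0.92 over the arrays). For both genes, however, the slide 2 arrays lay below all slide 1 arrays, and shared regulation was not tested. Nr2f2 and Il1r1 had an r of 0.90. Each sequence runs 5′ to 3′ along the gene, from 250 bases before the annotated start to 50 bases after it. Capitals mark 3 short motifs searched on both strands. AGGTCA is the half-site bound by nuclear receptors such as COUP-TFII. AGATAA is a motif of GATA factors. AGGAAG is a motif of ETS factors. Of 32851 promoter windows of this length, 16.3% held the half-site, 11.2% the GATA motif and 35.4% the ETS motif on either strand.
Ackr1 promoter, GRCm38.p6 chr1:173333454-173333753, minus strand: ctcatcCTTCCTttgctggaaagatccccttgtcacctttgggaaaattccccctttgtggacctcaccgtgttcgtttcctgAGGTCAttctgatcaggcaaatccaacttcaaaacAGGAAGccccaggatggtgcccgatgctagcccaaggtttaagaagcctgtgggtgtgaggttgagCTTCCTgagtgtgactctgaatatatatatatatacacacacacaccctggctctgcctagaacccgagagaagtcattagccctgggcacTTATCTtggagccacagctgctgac
Nr2f2 promoter, GRCm38.p6 chr7:70366697-70366996, minus strand: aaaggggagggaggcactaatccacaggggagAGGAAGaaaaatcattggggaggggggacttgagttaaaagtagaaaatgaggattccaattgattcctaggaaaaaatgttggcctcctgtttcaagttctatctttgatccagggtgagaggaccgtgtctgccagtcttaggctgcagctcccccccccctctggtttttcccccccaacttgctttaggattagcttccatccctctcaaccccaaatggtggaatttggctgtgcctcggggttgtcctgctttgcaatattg
Emcn promoter, GRCm38.p6 chr3:137340828-137341127, plus strand: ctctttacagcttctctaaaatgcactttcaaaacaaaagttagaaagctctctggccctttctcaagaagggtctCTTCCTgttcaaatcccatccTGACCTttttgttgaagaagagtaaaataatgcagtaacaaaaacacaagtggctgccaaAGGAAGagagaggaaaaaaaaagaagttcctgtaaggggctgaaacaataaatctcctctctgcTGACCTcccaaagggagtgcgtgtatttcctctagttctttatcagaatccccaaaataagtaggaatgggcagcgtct
The Ackr1 window held 1 half-site, 1 GATA motif and 3 ETS motifs. The Emcn window held 2 half-sites, both on the opposite strand, and 2 ETS motifs, whereas the Nr2f2 window held 1 ETS motif and no other match. Among the other windows Tll1 had 1 GATA and 1 ETS motif, Lrg1 had 4 ETS motifs, and neither Nt5e nor either start of Il1r1 had a match. These are matches of letters only, with no measurement of binding.

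Nr2f2, on chromosome 7 (probe accession NM_009697), which encodes the venous fate regulator COUP-TFII, was strongly detected in every sample. It read 2.95, 2.97 and 2.77 in wild type and 2.86, 2.85 and 2.67 in the knockout. The groups overlapped, because the lowest wild-type array lay below 2 of the knockout arrays. The difference was -0.10 ± 0.10 (SE, n = 3 per group, limma adjusted p = 1.00). The knockout level was 93.1% of wild type with a 95% interval of 78.5% to 110.5%. The difference was -0.11 within slide 1 and -0.092 within slide 2.

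None of the genes tied to Nr2f2 passed the test. The list held its relatives Nr2f1 and Nr2f6, the chromatin remodeller Smarca4, which acts on its promoter, and arterial and Notch genes that it holds down. Of 10 genes 9 were tested and the median difference was -0.0064 with 4 above 0. Foxc1, a forkhead factor that acts with Notch, had the smallest p (-0.23 ± 0.10, SE, n = 3 per group, limma adjusted p = 0.634). Dll4, the arterial Notch ligand, differed by 0.21 ± 0.16 and Nrp1, a semaphorin and VEGF co-receptor, by -0.12 ± 0.13, both with overlapping groups. Hey2, an arterial Notch target, was on no array well above background. Left out one at a time, the arrays moved the list's median between -0.079 (without APJ knockout replicate 3) and 0.028.

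Ackr1, on chromosome 1 (NM_010045), encodes a chemokine scavenging and transporting receptor that marks venules and is also carried by red blood cells. Its log2 signal was -2.31, -1.85 and -1.95 in the wild-type arrays and -2.97, -2.89 and -2.45 in the knockout arrays. Every knockout array lay below every wild-type array, with the highest knockout value at -2.45 and the lowest wild-type value at -2.31. The difference was -0.73 ± 0.18 (SE, n = 3 per group), a knockout level of 60.1% of wild type with a 95% interval of 44.3% to 81.5%. The limma adjusted p of 0.230 missed the threshold, and 2.58% of everything tested had a p at least as small. The exact permutation test gave p = 0.1, the smallest that 3 arrays against 3 allow. The difference was -0.85 within slide 1 and -0.50 within slide 2, and with 1 array left out it ran from -0.89 to -0.64.

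The Ackr1 probe was dim, which limits how well the size is known. Its processed intensity was 58.0, 69.4 and 97.6 in wild type and 39.0, 34.9 and 73.0 in the knockout, beside a local background of 26 to 36. Before scaling by the array's percentile the groups overlapped, and both slide 2 arrays had the higher value of their genotype. With another background correction, normexp on median spot and background signals, the difference was -0.41 (limma adjusted p = 0.251). The erythroid list had 6 of 10 genes tested, all 6 above 0 and none called. Its summed level was 8.37 to 9.18 in wild type and 8.46 to 9.25 in the knockout, and Epb42, a red cell membrane protein, was on no array well above background. The part of red cell RNA in the Ackr1 difference was not tested.

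**Figure D1:**
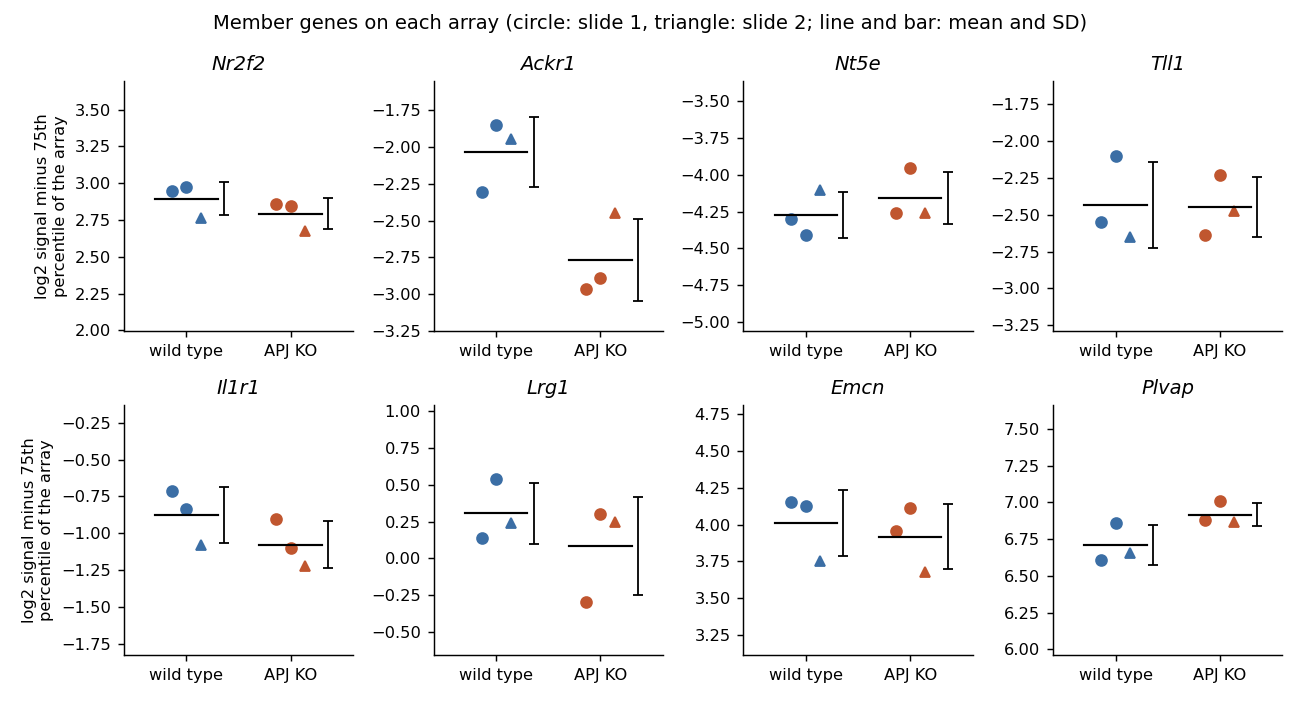
Log2 signal minus the array's 75th percentile for the 8 genes, each on an axis of equal span, in 3 wild-type (blue) and 3 APJ knockout (red) arrays; circles are slide 1, triangles slide 2, and lines and bars give the mean and SD. Ackr1 shows the widest gap (-2.03 in wild type against -2.77 in the knockout), and Nr2f2, Il1r1 and Emcn have lower points on slide 2 within each genotype.

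Atypical chemokine receptors and the chemokines that Ackr1 binds had differences of both signs. Of 10 listed genes 6 were tested, none was called, and the median difference was 0.08 with 3 below 0. Ackr2, a scavenger of inflammatory CC chemokines known from lymphatic endothelium, read -1.58, -1.79 and -1.94 in wild type and -0.45, -0.82 and -1.05 in the knockout. All knockout arrays of Ackr2 lay above the wild-type arrays, the opposite order to Ackr1. Its difference was 1.00 ± 0.17 (SE, n = 3 per group, limma adjusted p = 0.0907). It passed when slides were blocked (limma adjusted p = 0.0371), but not when replicate numbers were (0.0742). Lymphatic endothelial markers lay the same way as Ackr2: 11 of 12 were above 0, with a median of 0.52. None was called, and 9 had an unadjusted limma p under 0.05, where 8.01% of everything tested did. When slides were blocked 3 were called, and 0 when replicate numbers were. Over everything tested the slide block called 190 higher and 101 lower, and the replicate block 4 and 1. Their summed level was 9.25 to 9.45 in wild type and 9.41 to 9.56 in the knockout, most of it from Ccl21a, which differed by only 0.08. Their part in the Ackr2 difference was not tested. Among the chemokines, Ccl5 differed by -0.46 ± 0.26 with overlapping groups. Cxcl2 also overlapped and was well above background on only 2 of 3 wild-type arrays. Its difference of 1.04 ± 0.63 was 0.26 with normexp and 0.30 without wild type replicate 2. The list's median was -0.14 without APJ knockout replicate 2, and 0.71 once the array of APJ knockout replicate 1 was left out.

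Il1r1, on chromosome 1 (NM_008362), is the signalling receptor for interleukin 1 and is abundant in venules. It read -0.71, -0.84 and -1.08 in wild type and -0.91, -1.10 and -1.22 in the knockout. The groups overlapped, the highest knockout array lying above the lowest wild-type array. The difference was -0.20 ± 0.13 (SE, n = 3 per group, limma adjusted p = 0.962), or 87.0% of wild type with a 95% interval of 69.5% to 108.9%. Within slides it was -0.23 and -0.14.

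The interleukin 1 pathway had no called gene. Of 12 listed genes 9 were tested, with a median difference of -0.0083 and 4 above 0. Il1a, the antagonist Il1rn and the co-receptor Il1rap were not well above background on any array. Il1b, the ligand, had a difference of 1.34 ± 0.66 (SE, n = 3 per group) at a limma adjusted p of 0.759. It was well above background on only 2 of 3 wild-type arrays, so it entered the test only through the knockout arrays. With normexp on median signals the difference of Il1b was 0.33. Irak2, a kinase of the receptor complex, differed by -0.15 ± 0.18, and by 0.040 when its probes were averaged, and Tollip, a brake on the pathway, differed by -0.22 ± 0.28. The difference of Tollip was 0.077 without APJ knockout replicate 2. Macrophage markers had 9 of 10 tested genes above 0 and none called, with a median of 0.79. An unadjusted limma p under 0.05 was found for 6, where 8.01% of everything tested had one. Lyz2 (1.83), C1qa (1.79), C1qc (1.91) and Adgre1 (2.07) were well above background on only 1 or 2 of 3 wild-type arrays. They entered the test only through the knockout arrays, where they were high, and each counts in the 9 and in the 6. With normexp on median signals, Lyz2, C1qa and C1qc differed by 0.39, 0.52 and 0.62. The summed level of the list was 5.55 to 5.72 in wild type and 5.56 to 5.68 in the knockout, most of it from Itgam, which differed by 0.018. Their part in the Il1b values was not tested.

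Lrg1, on chromosome 17 (NM_029796), is a secreted leucine-rich glycoprotein of venules that joins TGF-β receptor complexes and promotes vessel growth. It read 0.14, 0.54 and 0.24 in wild type and -0.30, 0.30 and 0.25 in the knockout. APJ knockout replicate 1 was the lowest of all arrays and the other knockout arrays lay within the wild-type range. The difference was -0.22 ± 0.19 (SE, n = 3 per group, limma adjusted p = 1.00), or 85.7% of wild type with a 95% interval of 62.2% to 118.0%. It was -0.34 within slide 1 and 0.0048 within slide 2.

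The TGF-β receptor genes that Lrg1 works through had no called member. All 12 were tested and the median difference was -0.00081 with 6 above 0. Eng, the co-receptor endoglin to which Lrg1 binds, read 5.37, 5.62 and 5.59 in wild type and 5.67, 5.83 and 5.90 in the knockout. The groups of Eng did not overlap, and the difference of 0.27 ± 0.11 (SE, n = 3 per group) had a limma adjusted p of 0.597. Bmpr2, a BMP receptor, differed by 0.11 ± 0.12 and Smad1, a BMP signal carrier, by -0.15 ± 0.14. Left out one at a time, the third wild-type array gave a median of -0.067 and the first gave 0.055.

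Tll1, on chromosome 8 (NM_009390), encodes tolloid-like 1, a metalloprotease that trims procollagens and BMP antagonists and marks venous endothelium. The brighter of its probes read -2.55, -2.10 and -2.65 in wild type and -2.63, -2.23 and -2.48 in the knockout. These values were interleaved, and the difference was -0.013 ± 0.18 (SE, n = 3 per group, limma adjusted p = 1.00; 95% interval 73.7% to 133.3% of wild type). The other probe read -3.58, -3.93 and -4.51 in wild type and -3.58, -3.62 and -3.92 in the knockout. Its difference of 0.30 ± 0.24 had the opposite sign (limma adjusted p = 1.00 with every probe tested on its own, where 0.694% of 28380 probes were called). The direction of Tll1 was therefore not settled, with 0.14 for the mean of both probes. Processed intensities of 16.4 to 26.4 of the other probe stood beside a local background of 17 to 22.5.

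The tolloid list of related proteases, enhancers and substrates likewise had no called gene. Of 10 genes 7 were tested, 4 of them above 0, with a median of 0.05. Bgn, the matrix proteoglycan biglycan, had a difference of 0.30 ± 0.12 (SE, n = 3 per group, limma adjusted p = 0.594). Pcolce, an enhancer of procollagen trimming, differed by -0.19 ± 0.14 and Bmp1, the founding tolloid protease, by 0.07 ± 0.09. Tll2 and Lox were not well above background on any array.

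Nt5e, on chromosome 9 (NM_011851), encodes CD73, the surface enzyme that makes adenosine from AMP. Its processed intensities were 11.8 to 21.9, beside a local background of 27 to 34, and it was not well above background in wild type replicate 2. It read -4.30, -4.41 and -4.10 in wild type and -4.26, -3.95 and -4.26 in the knockout. The groups overlapped and the difference was 0.12 ± 0.13 (SE, n = 3 per group, limma adjusted p = 1.00; 95% interval 87.1% to 134.7% of wild type). It was 0.25 within slide 1, -0.16 within slide 2 and -0.0010 with normexp, so no direction can be given for Nt5e.

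Other genes of nucleotide and adenosine handling were not called. Of 12 genes 8 were tested, 5 of them above 0, with a median of 0.09. Adora2a, an adenosine receptor, read 2.86 to 2.99 in wild type and 3.00 to 3.25 in the knockout. The groups of Adora2a did not overlap, by a narrow margin, and its difference of 0.20 ± 0.10 (SE, n = 3 per group) had a limma adjusted p of 0.756. Ada, which breaks adenosine down, differed by 0.23 ± 0.13 and Slc29a1, which carries it across membranes, by 0.16 ± 0.11. Entpd3, Adora1 and Alpl were not well above background on any array.

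Emcn, on chromosome 3 (NM_001163522), encodes endomucin, a sialomucin that coats veins and capillaries and hinders leukocyte adhesion. It read 4.16, 4.13 and 3.75 in wild type and 3.95, 4.12 and 3.68 in the knockout. The low value of each genotype came from slide 2 and the groups overlapped. The difference was -0.10 ± 0.16 (SE, n = 3 per group, limma adjusted p = 1.00), or 93.5% of wild type with a 95% interval of 71.5% to 122.3%. With slides blocked the SE was 0.071 in place of 0.16 and the limma adjusted p was 0.676, and without APJ knockout replicate 3 the difference was 0.022.

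Among the other sialomucins and endothelial surface glycoproteins, 7 of 8 were tested and 1 was called. Madcam1, the addressin that binds lymphocyte integrin, fell (-1.74 ± 0.12, SE, n = 3 per group, limma adjusted p = 0.00824). It did not pass when replicate numbers were blocked (adjusted p = 0.0639), without wild type replicate 2 (0.0531) or with no filter on dim probes (0.0932). The list's median was -0.00035, with 3 above 0. Cd24a, a small mucin-like protein, read 2.07, 1.97 and 2.04 in wild type and 2.44, 2.48 and 2.36 in the knockout, apart from each other, and its difference of 0.40 ± 0.08 had a limma adjusted p of 0.148. Podxl2, a relative of podocalyxin, differed by -0.30 ± 0.12 (adjusted p = 0.548).

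Plvap, on chromosome 8 (NM_032398), which builds the diaphragms of fenestrae and caveolae, had a higher mean in the knockout but did not pass the test. The brighter probe read 6.61, 6.86 and 6.66 in wild type and 6.88, 7.01 and 6.86 in the knockout. All knockout arrays lay above all wild-type arrays, though the lowest knockout value (6.864) exceeded the highest wild-type value (6.862). The difference was 0.21 ± 0.10 (SE, n = 3 per group, limma adjusted p = 0.774), or 115.5% of wild type with a 95% interval of 97.2% to 137.3%. The other probe read 4.30, 4.53 and 4.16 in wild type and 4.60, 4.68 and 4.43 in the knockout, with a difference of 0.24 ± 0.13 (limma adjusted p = 0.824) and overlapping groups. The brighter probe gave 0.21 within each slide. Both probes thus gave the same sign and similar sizes.

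Caveola genes, whose products shape the vesicles that Plvap diaphragms close, had no called member. All 10 were tested and the median was 0.0022 with 5 above 0. Cavin3, a coat protein of caveolae, read 5.67, 5.86 and 5.79 in wild type and 5.32, 5.38 and 5.60 in the knockout. The groups of Cavin3 did not overlap and the difference was -0.34 ± 0.11 (SE, n = 3 per group, limma adjusted p = 0.426). Cavin1, the main coat protein, differed by -0.08 ± 0.09 and Dnm2, a membrane-severing GTPase, by 0.09 ± 0.09. The median ran from -0.072 to 0.082 (without APJ knockout replicate 3) with 1 array left out.

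**Figure D2:**
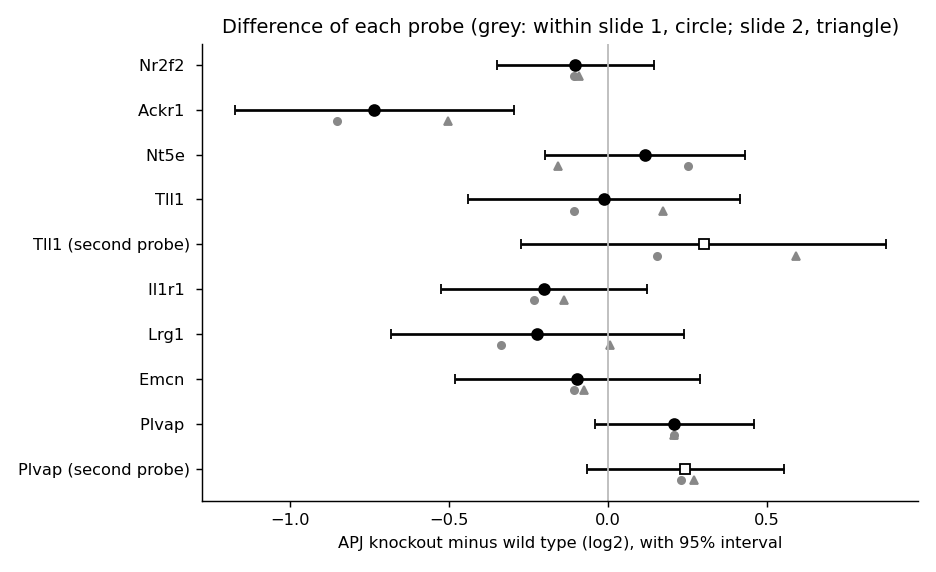
Difference between genotypes (log2, knockout minus wild type) for each of the 10 probes, tested on its own, with the 95% interval of the fit; filled circles are the probes that stand for a gene and open squares the other probes. Only the interval of Ackr1 leaves out 0, and the grey marks show that Nt5e, the brighter Tll1 probe and Lrg1 had opposite signs within slide 1 and slide 2.

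The other venous and capillary genes, listed here beside the 8, also had no called member. Of 12 further venous genes 10 were tested, with a median difference of 0.14 and 6 above 0. Ephb4, the receptor that marks venous endothelium, read 3.67, 3.71 and 3.58 in wild type and 4.06, 4.21 and 4.11 in the knockout. The groups of Ephb4 were well apart. The difference of 0.47 ± 0.09 (SE, n = 3 per group) had a limma adjusted p of 0.111. That p was 0.0444 with limma's trend and robust options, but 0.0592 when slides were blocked and 0.101 when replicate numbers were. With 1 array left out it was 0.22 to 0.35. Cpe, a carboxypeptidase, had a difference of 0.41 ± 0.14 (adjusted p = 0.479). Sele and Bst1 were not well above background on any array. The median of this list was -0.052 without APJ knockout replicate 2.

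Of 12 capillary genes all 12 were tested, 4 of them above 0, with a median of -0.034. Fabp4, a fatty acid carrier, differed by 0.63 ± 0.26 and Gpihbp1, which holds lipoprotein lipase on capillaries, by 0.36 ± 0.15 (SE, n = 3 per group), at limma adjusted p-values of 0.600 and 0.614. Cd93, a lectin-like receptor, read 7.89, 7.93 and 7.87 in wild type and 7.79, 7.79 and 7.78 in the knockout. Its groups did not overlap, but the difference was only -0.11 ± 0.08 (adjusted p = 0.989). Arterial markers had 12 of 13 genes tested, none called and a median of -0.073, with Cxcl12, a chemokine of arterial development, at -0.61 and its receptor Cxcr4 at 0.49, and Gja4, an arterial connexin, at -0.39. Cxcl12 passed when slides were blocked (limma adjusted p = 0.0318), but not when replicate numbers were (0.0946).

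**Figure D3:**
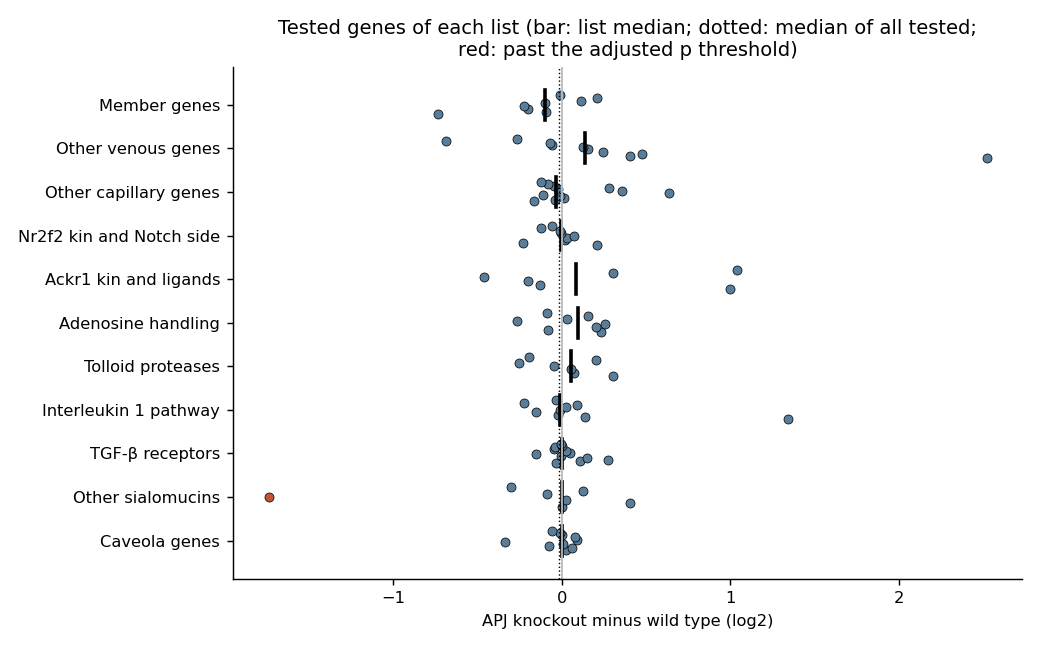
Difference between genotypes (log2, knockout minus wild type) of every tested gene in the member list and in 10 related lists; bars are list medians and the dotted line is the median of everything tested (-0.019). Among these lists the 1 red point, past the adjusted p threshold, is Madcam1 at -1.74.

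The 8 genes differed in how far their levels moved between slides. The pooled SD within groups was 0.11 to 0.28, with a median of 0.20 against 0.16 over everything tested. Emcn was lower on slide 2 than on slide 1 by a mean of -0.37, Il1r1 by -0.26, and Nr2f2 and the brighter Tll1 probe by -0.19. Each of these shifts was larger in size than that gene's own difference between genotypes. Ackr1 lay the other way, higher on slide 2 by a mean of 0.31. The slide 2 values of Ackr1, Nt5e, Lrg1 and Plvap lay within their slide 1 ranges. The 4 slide 1 arrays of Nr2f2 lay between 2.85 and 2.97 and the slide 2 arrays at 2.67 and 2.77. Over the 6 arrays, which share slides, Pearson's r was 0.92 between Nr2f2 and Emcn and 0.90 between Nr2f2 and Il1r1, the only pairs of 28 above 0.9. The lowest was -0.57, between Nt5e and Il1r1. Ackr1 and Plvap, whose genotypes did not overlap, had an r of -0.56.

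**Figure D4:**
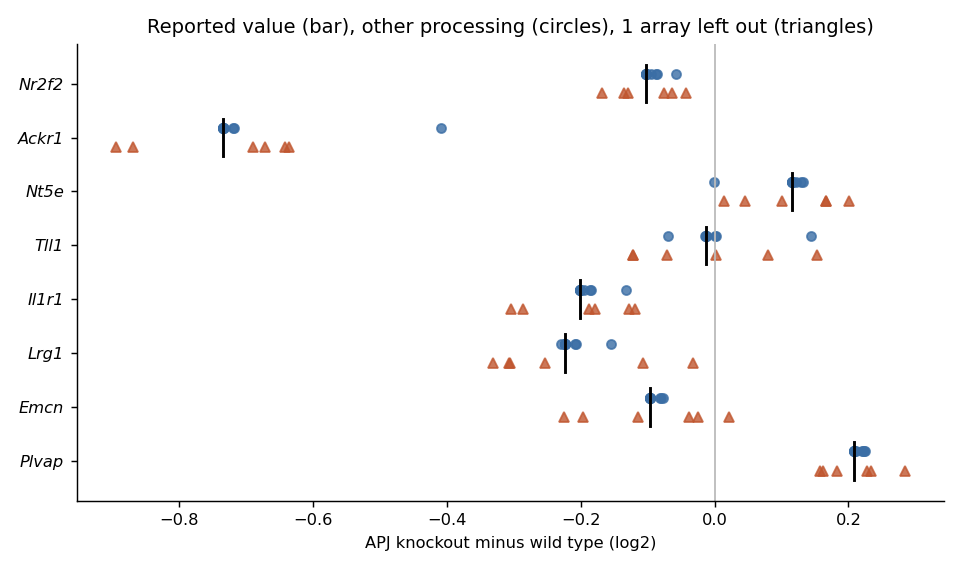
Reported difference (bar), differences under other processing (circles) and with 1 array left out (triangles) for each gene, in log2 units. Nr2f2, Ackr1, Il1r1 and Lrg1 stayed below 0 and Plvap above 0 at all settings drawn, whereas Tll1, Nt5e and Emcn fell on both sides of 0.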

How the data were processed

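RNA of sorted skin endothelial cells was hybridised to 1-colour arrays, from 0.1 µg labelled with Cy3, per the labels' protocols. The deposited scanner files give a linear intensity per spot (Agilent Feature Extraction, version 10.7.3.1), which per the file headers was background-subtracted and detrended with no scaling across arrays. The deposited table of the authors' values is the same intensity times 1 constant per array. Here, control and outlier spots were left out, log2 intensity minus the array's 75th percentile was taken, and spots of a probe were averaged. Probes well above background on every array of at least 1 group were tested, with the brightest probe standing for a gene. Symbols came from RefSeq accessions without version (GRCm38.p6, names and promoters only), matching 97.7% of 27016 curated probes. Genotype was fitted with limma 3.58.1 (lmFit, eBayes) in R 4.3.3, two-sided. The fit was tested on simulated data with independent noise on each array and no slide effect, so that test does not cover slide effects.

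The members and lists were chosen with earlier results of these data known. Named genes are all members, Aplnr, and from each list every called gene and the 3 with the smallest p. For each member the 2 named genes of highest correlation were also taken. A few genes that this rule names are not reported here. The reported fit did not pair the samples, and replicate numbers were used as pairs only in an alternative fit. Same-numbered deviations from the group means correlated at 0.23, 0.15 and 0.65. Differently numbered arrays that share slide 1 correlated at 0.36 (wild type 1 with knockout 2) and 0.28 (wild type 2 with knockout 1). On slide 1 a shared number thus went with no higher correlation than the shared slide alone. Replicate 3 was the only number on slide 2, so there number and slide cannot be told apart. The labels do not state a pairing. Intervals are at 95% and cover the spread between arrays, whose number limits precision.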

Additional observations from a re-analysis of the deposited data

How the results depend on the processing

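Of 151 results for the 8 genes under alternatives, 140 kept the sign of the reported value and 11 did not, and of the 135 with a test 0 passed (lowest limma adjusted p = 0.106, for Ackr1 with the slide as a block). Tll1 turned to 0.0028 with the array median, 0.0012 with the authors' value table, 0.14 with probes averaged and 0.17 within slide 2, and ran from -0.12 to 0.15 with 1 array left out. Nt5e turned to -0.0010 with normexp on median signals and to -0.16 within slide 2, Lrg1 to 0.0048 within slide 2, and Emcn ran from -0.23 to 0.022 with 1 array left out. Irak2 turned to 0.040 with probes averaged, and Tollip ran from -0.48 to 0.077 with 1 array left out. Genes called higher and lower numbered 3 and 0 without a filter on dim probes, where more probes were tested, and 190 and 101 with the slide as a block. With the replicate number as a block, or paired fit, they numbered 4 and 1, and this block changed the call of no member, ended those of Aplnr and Madcam1 and added that of C1qa, a complement gene. With trend and robust, 70 were called lower and Ephb4, Nts, Stab1 and Clec1b passed, and with 1 array left out 11 to 44 were called higher and 1 to 26 lower. The cause of these shifts was not tested. Without a filter, 0 were called lower by limma, although 8.01% of everything tested had an unadjusted p under 0.05 in the filtered fit. With 1 array left out, list medians ran from -0.052 to 0.27 for the other venous genes, -0.14 to 0.71 for Ackr1 partners, -0.079 to 0.028 for the Nr2f2 list, -0.067 to 0.055 for TGF-β receptors, -0.072 to 0.082 for caveola genes and 0.64 to 1.31 for macrophage markers. They spanned 0 also for capillary genes (-0.078 to 0.0036), adenosine handling (-0.012 to 0.22), the interleukin 1 pathway (-0.056 to 0.050), sialomucins (-0.039 to 0.028), fibroblast and mural markers (-0.34 to 0.20) and erythroid markers (-0.094 to 0.40). Normexp on mean signals was not run, since the column is not in the files used, and median signals were taken after the data were seen. Nt5e had no value where all arrays had to be above background. Low intensity limits Nt5e, Ackr1 and the dimmer Tll1 probe.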

Other observations

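Genes whose levels over the 6 arrays were most like each member's were taken from 12990 named genes by Pearson's r, as a description over arrays that share 2 slides. The highest of 12990 values over only 6 arrays is large whatever the member, and even the dim Nt5e reached 0.965. These values therefore do not show shared regulation. Nr2f2 was most like Rbm5, an RNA-binding splicing factor, and Otof, which encodes otoferlin (r = 0.999 and 0.998). Among the genes most like Ackr1 was Pkd1, which encodes polycystin 1 (0.998). Emcn was most like Fam168b and Snx16, a sorting nexin (0.998 and 0.997), and Plvap like Glo1, which encodes glyoxalase 1, and Praf2 (0.995 and 0.978). Il1r1 was most like Fanci, a DNA repair gene, and Zfp105 (0.996 and 0.987), Lrg1 like Cyb5d1 and Olfr94 (0.994 and 0.986), Tll1 like Shf and Rbm45 (0.993 and 0.990), and Nt5e like Clec2e and Nol10 (0.965 and 0.963).

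Markers of other cells of the skin were counted over the same fit, with no gene called in any of these lists. Keratinocyte markers had 8 of 12 genes tested, all 8 below 0, with a median of -1.30. Their summed level was 3.36 to 5.13 in wild type and 3.38 to 3.50 in the knockout. Most of the knockout sum came from Trp63, which differed by only -0.10. Wild type replicates 2 and 3 carried the high values: Krt5 read -1.80, 1.26 and 3.38 in wild type and Krt15 read -5.13, -0.62 and 1.43. Leaving out the first wild-type array gave a median of -2.30, and leaving out the third gave -0.46. Fibroblast and mural markers had 10 of 12 tested, 5 above 0, with a median of 0.013, and platelet markers 10 of 10 tested, 8 above 0, with a median of 0.21. The summed platelet level did not overlap between groups, at 2.83 to 2.93 in wild type and 3.09 to 3.43 in the knockout. Pf4, which differed by 0.48, made up the largest part of it. The sums of the other venous genes (7.29 to 7.43 against 7.48 to 7.63) did not overlap either. Nor did those of the sialomucins, at 8.322 to 8.418 in wild type and 8.139 to 8.318 in the knockout. Of single genes and unnamed probes, 12.2% did not overlap. Clec1b, the platelet receptor CLEC-2, differed by 0.70 ± 0.11 (SE, limma adjusted p = 0.0675) and passed when slides were blocked (0.0239), but not when replicate numbers were (0.0858).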
